A study of Mus musculus with 6 samples.

Results

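The genes of the interstitial matrix that fibroblasts lay down were followed in sorted cells of MMTV-Wnt-1 mammary tumours: 41 genes of fibrillar and other collagens, proteoglycans, elastic fibre and adhesive glycoproteins, collagen-processing enzymes and the fibroblast proteins Fap and Serpinf1. They were chosen by name. A probe set annotated with that gene alone was found for 38 of the 41, of 15027 genes tested, and each gene is represented by its brightest probe set, by the mean of all 6 arrays. Fbn1, Adamts2 and Loxl2 were not analysed here. In MMTV-Wnt-1 mice a mouse mammary tumour virus promoter, active in mammary epithelium, drives the Wnt1 transgene, and tumours of the gland follow. Cells of tumours from 3 mice were sorted by fluorescence, and 2 populations per mouse were hybridised to 1 Affymetrix array each: one labelled tumorigenic (CD24+Thy+CD45-) and one labelled nontumorigenic (Not CD24+Thy+CD45-), which gives 3 arrays against 3. All 6 arrays carry the transgene, and the titles name the same mice 1 to 3 for both labels. No age or strain background is given in the labels. By its title the study concerns cancer stem cells, and the question here is whether matrix transcripts differ between cells called tumorigenic and the other sorted cells.

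Collagens of the interstitium are made as procollagen chains that are hydroxylated and folded in the endoplasmic reticulum, trimmed by proteinases outside the cell and cross-linked by lysyl oxidases. Small leucine-rich proteoglycans bind the resulting fibrils and set their spacing, while fibronectin, tenascins and thrombospondins link matrix to cell surface receptors. In the mammary gland and its tumours fibroblasts are the main source of these proteins, though pericytes, myoepithelial cells and endothelial cells make some of them as well. Thy1, one of the sort markers, is also carried by fibroblasts in the mouse.

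Transcripts of the sort markers were read before the matrix genes. Ptprc (CD45, the antigen the gate excluded) had levels of 10.21, 7.76 and 3.82 log2 units on the labelled tumorigenic arrays of mice 1, 2 and 3, against 2.34, 3.59 and 2.51 on the labelled nontumorigenic ones. Ptprc therefore went against the CD45-negative gate, and every direction below is one between labels. Thy1 read 10.83, 10.51 and 9.33 in the arrays labelled tumorigenic and 10.25, 9.67 and 10.04 in those labelled nontumorigenic, so the groups overlapped. Cd24a read 11.85, 12.34 and 12.84 under the tumorigenic label against 12.86, 12.84 and 12.99 under the nontumorigenic one. It was thus lower in each mouse under the label gated as CD24+, by -1.02, -0.50 and -0.15. Array medians lay between 4.36 and 4.40, and arrays have no sequencing depth, so the number of arrays limits the precision.

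Matrix genes read above the dim limit in both populations. The lowest value of any of the 38 genes on any array was 4.81, above the limit of 2.98 below which probe sets were left out as dim. That limit cuts off the dimmest 25% of probe sets by their mean and is no test of detection. Of 16 further genes of fibroblast identity, such as the growth factor receptor Pdgfra and the homeobox factor Prrx1, 15 passed that limit. In bulk samples of this kind, fewer cells of a type and less RNA per cell cannot be told apart.

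No matrix gene separated the labels past the threshold. By limma with Benjamini-Hochberg adjustment, 0 of 38 had an adjusted p below 0.05, as did 0% of all genes tested, and the smallest adjusted p of a matrix gene was 0.487. Of the 38, 32 had a positive log2 difference (labelled tumorigenic minus labelled nontumorigenic), and the median was 0.25, against 0.0051 over all genes tested, of which 50.7% were positive. At an unadjusted limma p below 0.05 there were 4 higher matrix genes, Serpinf1, Fmod, Tnc and Fbln2, or 4 of 38 beside 5.23% of all genes. There were 0 lower ones beside 3.27%. The 95% interval of the difference, which is not adjusted for the number of genes, included 0 for the other 34. Its median width over the 38 was 2.01 log2 units. For a typical matrix gene a difference within about 1 log2 unit could thus not be told from 0, even before adjustment. After adjustment larger differences did not pass either, since 0% of all genes did.

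The mean differences were made up of unlike differences between the mice. The median difference of the 38 genes was 0.84 in mouse 1, 0.62 in mouse 2 and -0.72 in mouse 3, while over all genes tested it was -0.033, 0.042 and 0. Positive differences were found for 36 of 38 genes in mouse 1, 34 in mouse 2 and 8 in mouse 3, beside 45.4%, 53.3% and 49.2% of all genes. In 26 of the 38 the difference was positive in mice 1 and 2 and negative in mouse 3, a pattern that 12.8% of all genes showed. Each mouse gives 1 array per label, so a difference between mice has no replicate and was not tested.

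**Figure D1:**
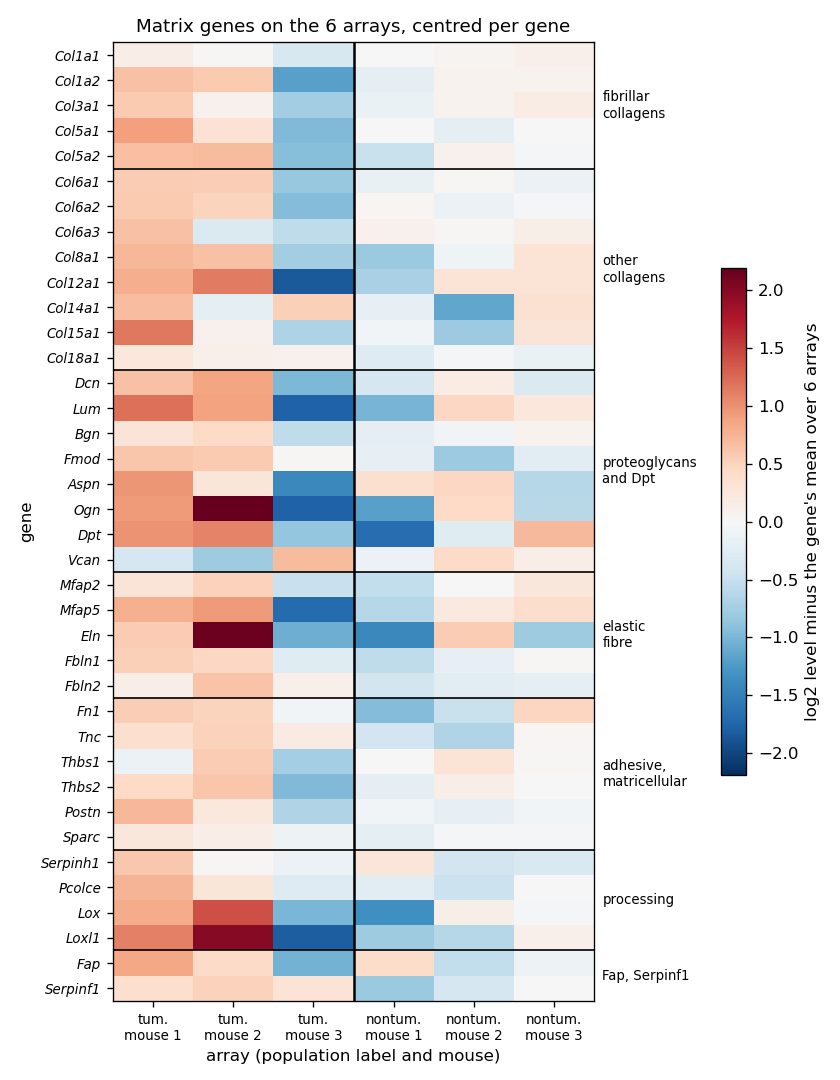
Log2 level of 38 matrix genes (rows, grouped by role) on the 6 arrays (columns; tum., labelled tumorigenic; nontum., labelled nontumorigenic), each row centred on the gene's mean over 6 arrays. Red is above and blue below that mean; the labelled tumorigenic arrays of mice 1 and 2 held the highest value in 37 of 38 rows and that of mouse 3 the lowest value in 20.

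The division lay within the labelled tumorigenic arrays. The labelled tumorigenic array of mouse 3 lay below the mean of those of mice 1 and 2 for 36 of 38 genes, with a median gap of -1.21 log2 units, against 0.020 over all genes tested. It held the lowest of the 6 values for 20 genes, 52.6% of the 38, against 12.9% of all genes. The highest value was on the labelled tumorigenic array of mouse 1 for 21 genes, of mouse 2 for 16 and of mouse 3 for 1, Vcan. The standard deviation was larger among the arrays labelled tumorigenic than among those labelled nontumorigenic for 31 of 38 genes, with medians of 0.78 and 0.32, while over all genes tested it was larger in 54.6%.

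The direction of the comparison depended on which arrays entered it. The median difference stayed positive with any single array left out, at 0.037 to 0.70. With both arrays of mouse 1 left out it was -0.076. Without the labelled tumorigenic array of mouse 3, 19 matrix genes had an unadjusted limma p below 0.05 and a positive difference, beside 9.04% of all genes, and the median difference was 0.70. With the labelled tumorigenic arrays of mice 1 and 2 left out, 12 had such a p and a negative difference, beside 2.26% of all genes, and the median was -0.56. That second fit has a lone labelled tumorigenic array, which would have to be assumed to vary like the others, so only its differences are given. No matrix gene passed the adjusted threshold in the first fit. Both fits were chosen with earlier results of these data known. Their opposite signs and the count of 19 follow from which array was left out and are a description of the arrays.

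Markers of other cells differed between the arrays too, and some lists shared part of the pattern of the matrix genes. For 9 of 9 pericyte and 15 of 15 macrophage and leukocyte markers the labelled tumorigenic array of mouse 3 lay below the mean of those of mice 1 and 2. So it did for 11 of 12 endothelial and 6 of 6 adipocyte markers, beside 47.0% of all genes. For basal and for luminal markers the count was 0 of 10. Of 15 macrophage and leukocyte markers measured, 14 had an unadjusted limma p below 0.05 and a positive difference, beside 5.23% of all genes. Among these 14, Ptprc and Adgre1 had labelled nontumorigenic means below the dim limit (2.81 and 2.93), so they were tested only through the arrays where they are high, and 12 had both means past the limit. The mean level of the 15 was 10.51, 8.91 and 5.68 on the labelled tumorigenic arrays of mice 1 to 3, and 4.29 on each array labelled nontumorigenic. The mean level of the 38 matrix genes was 10.58, 10.55 and 9.32 under the tumorigenic label and 9.59, 9.89 and 10.001 under the nontumorigenic label. Pericyte markers averaged 9.87, 9.49 and 8.67 under the tumorigenic label and 9.43, 9.51 and 8.80 under the nontumorigenic one. Their mean was thus also lowest on the labelled tumorigenic array of mouse 3. Basal and myoepithelial markers ran the other way, at 9.44, 9.64 and 10.59 under the tumorigenic label and 9.63, 9.71 and 9.21 under the nontumorigenic one. Endothelial markers averaged 7.76, 8.26 and 7.45 under the tumorigenic label and 6.76, 6.22 and 6.20 under the nontumorigenic one, and adipocyte markers 6.62, 8.67 and 6.84 against 5.35, 5.50 and 5.71 under the nontumorigenic label. Macrophage, endothelial and adipocyte means on the labelled tumorigenic array of mouse 3 thus lay above those of every labelled nontumorigenic array, whereas the matrix mean lay below. Luminal markers averaged 6.19, 8.02 and 7.95 under the tumorigenic label and 9.05, 9.14 and 9.33 under the nontumorigenic one, lowest in mouse 1. At an unadjusted limma p below 0.05, 4 of 10 luminal markers were lower under the tumorigenic label, beside 3.27% of all genes. At that limit 10 of 12 endothelial and 2 of 6 adipocyte markers were higher, beside 5.23% of all genes. One of the adipocyte pair, Adipoq, had a labelled nontumorigenic mean of 2.55, below the dim limit, and was likewise tested only through the arrays where it is high. The excess of the 3' over the 5' Gapdh control probe set, a sign of RNA quality, was 3.81, 6.60 and 2.62 log2 units in the arrays labelled tumorigenic and 3.78, 2.41 and 3.10 in the others. The part of leukocyte, pericyte, basal, endothelial, adipocyte and luminal cell content and of RNA quality in the matrix values was not tested.

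**Figure D2:**
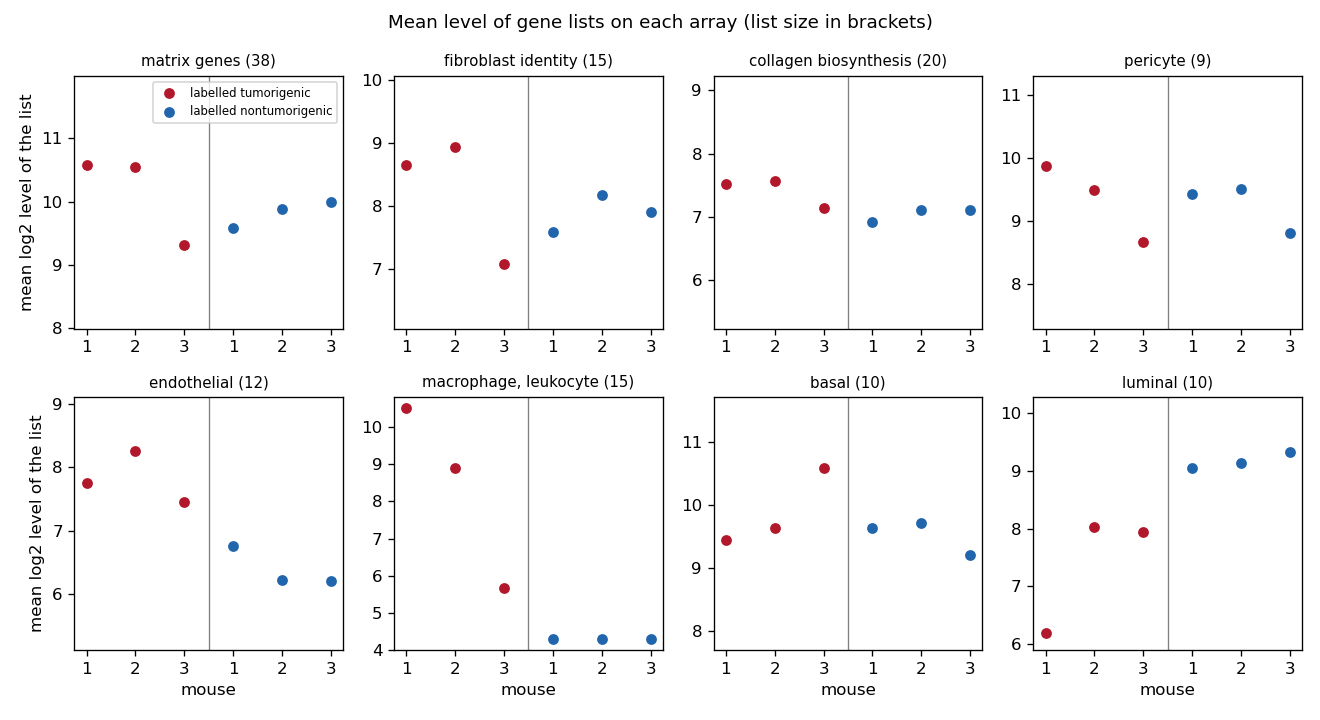
Mean log2 level of 8 gene lists on each array, with labelled tumorigenic arrays (red) left of labelled nontumorigenic arrays (blue) and mice 1 to 3 in order; the vertical axes differ in position and range. Matrix, fibroblast identity and pericyte genes are lowest on the labelled tumorigenic array of mouse 3, where basal genes are highest. Macrophage and leukocyte genes lie at 4.29 on every labelled nontumorigenic array.

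All 5 fibrillar collagens, which form the load-bearing fibres, had their lowest value on the labelled tumorigenic array of mouse 3. Col1a2, the alpha 2 chain of type I collagen, read 12.80, 12.72 and 10.97 in the arrays labelled tumorigenic and 11.94, 12.24 and 12.24 in those labelled nontumorigenic. Its arrays of mice 1 and 2 lay above and that of mouse 3 below every labelled nontumorigenic array, and the mean log2 difference of 0.027 had a 95% interval from -1.21 to 1.26 (limma adjusted p = 0.992).

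Col1a1, the alpha 1 chain, read 12.57, 12.44 and 12.06 in the arrays labelled tumorigenic and 12.42, 12.47 and 12.52 in those labelled nontumorigenic. On this probe set its values spanned a narrower range than those of Col1a2, though the chains assemble in 1 molecule. A second Col1a1 probe set read 12.25, 12.16 and 10.09 under the tumorigenic label and 10.64, 11.63 and 11.36 under the nontumorigenic label, with a difference of 0.29 against -0.12 for the chosen one. Col3a1, the chain of type III collagen found beside type I in soft tissue, read 12.66, 12.18 and 11.33 against 11.94, 12.16 and 12.25 under the nontumorigenic label.

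Type V collagen lies inside type I fibrils and limits their width. Its alpha 2 chain Col5a2 read 12.11, 12.16 and 10.53 in the arrays labelled tumorigenic and 10.97, 11.55 and 11.44 in those labelled nontumorigenic. Col5a1, its alpha 1 chain, differed by 0.90, 0.53 and -0.97 in mice 1, 2 and 3. Col3a1 and Col5a2 are direct neighbours in the RefSeq gene order of GRCm38.p6, with differences of 0.72, 0.014 and -0.93 for Col3a1 and of 1.14, 0.61 and -0.91 for Col5a2 in mice 1 to 3. These signs are those shared by 26 of the 38 genes, so their match says nothing particular about neighbours.

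Type VI collagen forms beaded filaments near cells from 3 chains. Col6a1 differed by 0.72, 0.52 and -0.70 in mice 1 to 3, and its gene neighbour Col6a2 by 0.54, 0.61 and -0.93. Col6a3, encoded elsewhere, read 11.16, 10.20 and 9.96 in the arrays labelled tumorigenic and 10.62, 10.55 and 10.64 in those labelled nontumorigenic. Mouse 2 thus had a positive difference for the first 2 chains and a negative one for Col6a3, at -0.36.

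Among collagens of other classes the division was widest for Col12a1 and absent in Col18a1 and Col14a1. Col12a1, which decorates type I fibrils, differed by 1.51, 0.84 and -2.14 in mice 1 to 3. Col8a1, a short-chain collagen of vessel walls, and Col15a1, a collagen next to basement membranes, differed by 1.52, 0.75 and -1.07, and by 1.22, 0.90 and -0.95. Col14a1, another fibril-associated collagen, read 10.31, 9.42 and 10.15 in the arrays labelled tumorigenic and 9.44, 8.49 and 9.96 in those labelled nontumorigenic. Its difference was positive in all 3 mice, but the groups overlapped (mean difference 0.67, SE 0.43; limma adjusted p = 0.708). The 2 further Col14a1 probe sets had mean differences of 0.85 and 0.46. On the dimmer of these, mouse 2 read 6.04 against 6.55 under the nontumorigenic label.

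Col18a1, the basement membrane collagen that is the parent of endostatin, read 10.50, 10.38 and 10.36 in the arrays labelled tumorigenic and 9.98, 10.24 and 10.11 in those labelled nontumorigenic. The groups did not overlap on this probe set. On a second one they did, at 10.07, 9.75 and 9.87 under the tumorigenic label and 9.71, 9.97 and 9.22 under the nontumorigenic label, with a difference of 0.27. The means on the chosen probe set were 10.41 ± 0.08 and 10.11 ± 0.13 (SD, n = 3 each), a 1.23-fold difference with a limma adjusted p of 0.646.

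Of the proteoglycans and their partners, Fmod stood apart from Dcn, Lum, Aspn and Ogn. Fibromodulin, encoded by Fmod, binds collagen fibrils during their growth. It read 12.45, 12.41 and 11.85 in the arrays labelled tumorigenic and 11.65, 11.05 and 11.60 in those labelled nontumorigenic, so that every labelled tumorigenic array lay above every other. The difference was 0.80 (SE 0.26), or 1.74-fold, with a limma adjusted p of 0.521, and the 5 further Fmod probe sets had differences between 0.81 and 1.08.

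Decorin (Dcn) and lumican (Lum), which limit fibril diameter and are direct neighbours in the gene order, had differences of 1.01, 0.70 and -0.67 for Dcn and of 2.22, 0.42 and -1.99 for Lum in mice 1 to 3. Ogn, osteoglycin, read 8.58, 9.84 and 5.88 in the arrays labelled tumorigenic and 6.45, 8.08 and 7.04 in those labelled nontumorigenic. Aspn, asporin, lies with 1 gene between it and Ogn, and it read 8.35, 7.64 and 5.97 against 7.73, 7.83 and 6.75 under the nontumorigenic label. For all 4 genes the labelled tumorigenic array of mouse 3 was the lowest of the 6.

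Biglycan (Bgn) read 12.58, 12.73 and 11.74 in the arrays labelled tumorigenic and 12.10, 12.24 and 12.36 in those labelled nontumorigenic. Dermatopontin (Dpt), which bridges decorin and collagen, read 9.20, 9.31 and 7.38 under the tumorigenic label and 6.55, 7.95 and 8.93 under the nontumorigenic label. Its SD was 1.08 among the arrays labelled tumorigenic and 1.20 among those labelled nontumorigenic.

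Versican (Vcan), a large hyaluronan-binding proteoglycan of loose matrix, ran against the others. It read 10.51, 10.10 and 11.57 in the arrays labelled tumorigenic and 10.75, 11.30 and 11.02 in those labelled nontumorigenic. Here mouse 3 held the highest and mouse 2 the lowest of the 6 values. The differences were -0.24, -1.20 and 0.56 in mice 1 to 3 (mean -0.29, 95% interval from -1.27 to 0.68, limma adjusted p = 0.860), and of 4 further probe sets 3 had the same negative sign.

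Elastic fibres are built of elastin on a scaffold of microfibrils. Eln, elastin, had the largest mean difference of the 38 genes, at 1.10 (SE 0.90; limma adjusted p = 0.763), and read 9.50, 11.10 and 7.87 in the arrays labelled tumorigenic and 7.53, 9.50 and 8.16 in those labelled nontumorigenic. The groups overlapped, mouse 2 was the highest under both labels, and a second Eln probe set had a difference of -0.09. The microfibril proteins Mfap5 and Mfap2 differed by 1.41, 0.71 and -2.06 and by 0.82, 0.51 and -0.74 in mice 1 to 3.

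Fibulins stabilise elastic and basement membrane networks. Fbln2 read 7.71, 8.20 and 7.70 in the arrays labelled tumorigenic and 7.18, 7.36 and 7.36 in those labelled nontumorigenic, without overlap. Its difference was 0.57 (SE 0.20), or 1.48-fold (limma adjusted p = 0.532), but a second probe set gave -0.04. Fbln1 read 7.94, 7.86 and 7.15 against 6.86, 7.23 and 7.44 under the nontumorigenic label, and its groups overlapped through mouse 3.

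Among adhesive and matricellular proteins Tnc had no overlap between the labels. Tenascin C, its product, is an anti-adhesive glycoprotein of remodelling stroma. Tnc read 9.70, 9.85 and 9.52 in the arrays labelled tumorigenic and 8.92, 8.69 and 9.39 in those labelled nontumorigenic. The difference was 0.69 (SE 0.23; limma adjusted p = 0.522), with 0.12 in mouse 3, and a second Tnc probe set had the opposite sign at -0.31.

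Fn1, fibronectin, read 11.09, 11.03 and 10.48 in the arrays labelled tumorigenic and 9.60, 10.05 and 11.02 in those labelled nontumorigenic. Mouse 3 had the lowest Fn1 value under the tumorigenic label and the highest under the nontumorigenic label. A second Fn1 probe set, dimmer, had the opposite sign at -0.34. Thbs1, a thrombospondin that restrains vessel growth, read 10.25, 10.94 and 9.63 against 10.37, 10.69 and 10.40 under the nontumorigenic label. Sparc, a collagen-binding counter-adhesive protein, read 12.78, 12.67 and 12.41 under the tumorigenic label and 12.31, 12.49 and 12.49 under the other. On this chosen probe set Sparc differed by no more than 0.47 in any mouse. Another bright Sparc probe set read 12.21, 12.00 and 11.55 under the tumorigenic label and 11.38, 11.60 and 11.53 under the nontumorigenic label. Its mean difference was 0.42 against 0.19 for the chosen one, and a dim Sparc probe set had -0.08. Postn (periostin) and Thbs2 had the common pattern, at 0.79, 0.40 and -0.59 and at 0.64, 0.46 and -0.96.

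Cross-linking enzymes showed wide spans between mice. Lox, the lysyl oxidase that starts covalent cross-links in collagen and elastin, read 11.36, 11.96 and 9.54 in the arrays labelled tumorigenic and 9.20, 10.68 and 10.50 in those labelled nontumorigenic. Loxl1, its relative needed for elastic fibres, read 8.64, 9.52 and 5.73 against 6.75, 6.91 and 7.65 under the nontumorigenic label. For Loxl1, mice 1 and 2 lay above and mouse 3 below every labelled nontumorigenic array, which gave differences of 1.89, 2.61 and -1.92.

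Pcolce, which enhances removal of the procollagen C-propeptide, read 11.33, 10.83 and 10.30 under the tumorigenic label and 10.33, 10.10 and 10.57 under the nontumorigenic label. Serpinh1, the collagen chaperone HSP47, had a positive difference in all 3 mice, at 0.32, 0.43 and 0.21, but its groups overlapped. Fap, the fibroblast activation protease, read 9.61, 9.17 and 7.72 against 9.16, 8.22 and 8.64 under the nontumorigenic label, with mouse 3 again the lowest of the 6.

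Serpinf1, which encodes the anti-angiogenic serpin PEDF, had the smallest p of the 38 genes. It read 12.13, 12.26 and 12.06 in the arrays labelled tumorigenic and 10.94, 11.39 and 11.75 in those labelled nontumorigenic, without overlap. The means were 12.15 ± 0.10 and 11.36 ± 0.40 (SD, n = 3 each), a 1.72-fold difference (SE 0.24 log2 units; limma adjusted p = 0.487). A second probe set, dimmer, differed by 0.33, and its groups overlapped.

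**Figure D3:**
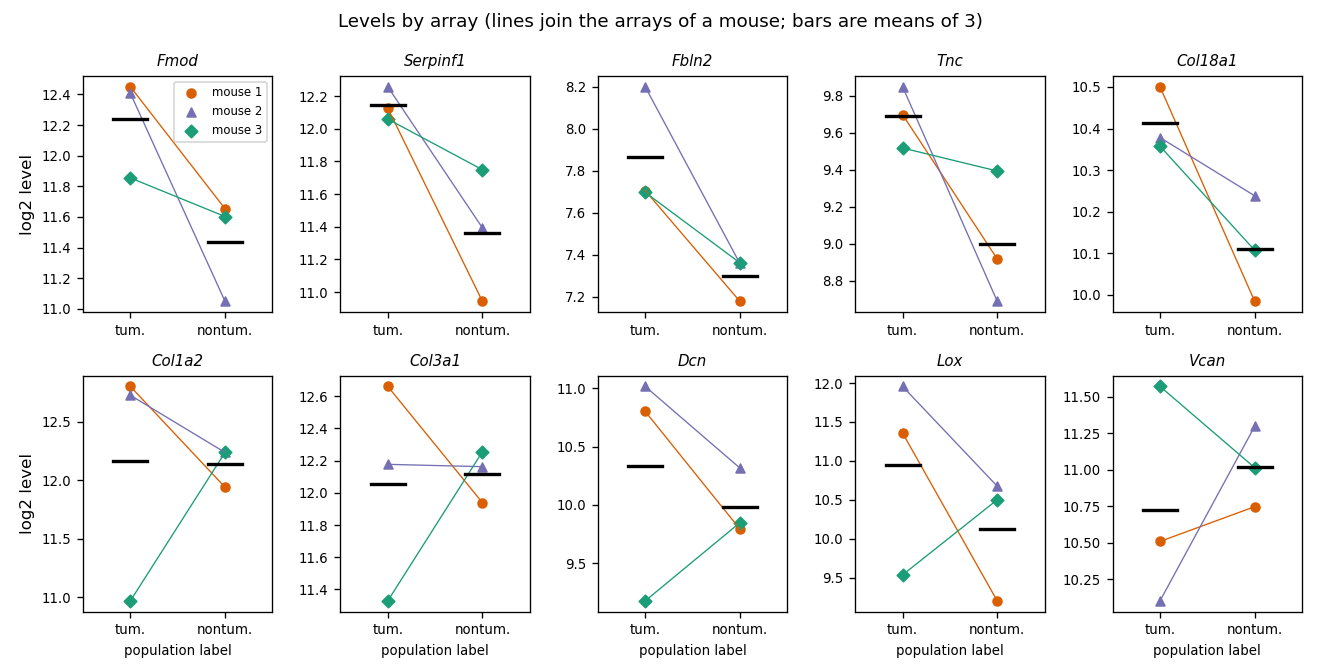
Log2 level of 10 matrix genes in the labelled tumorigenic (tum., left) and labelled nontumorigenic (nontum., right) array of each mouse, joined by a line, with black bars at the mean of 3 arrays; vertical axes differ between genes. In the upper row (Fmod, Serpinf1, Fbln2, Tnc, Col18a1) the labels do not overlap, and in the lower row the line of mouse 3 slopes against those of mice 1 and 2.

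In 5 of 38 genes the labelled tumorigenic values all lay above the labelled nontumorigenic ones: Col18a1, Fmod, Fbln2, Tnc and Serpinf1. Among all genes tested this was so in 6.9%. In 0 of 38 they all lay below, beside 5.59% of all genes. On the chosen probe sets, 7 of 38 had a positive difference in all 3 mice, beside 15.9% of all genes. These were the 5 named with Col14a1 and Serpinh1. The count of 7 lies near its background and is no result about the 38 genes.

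**Figure D4:**
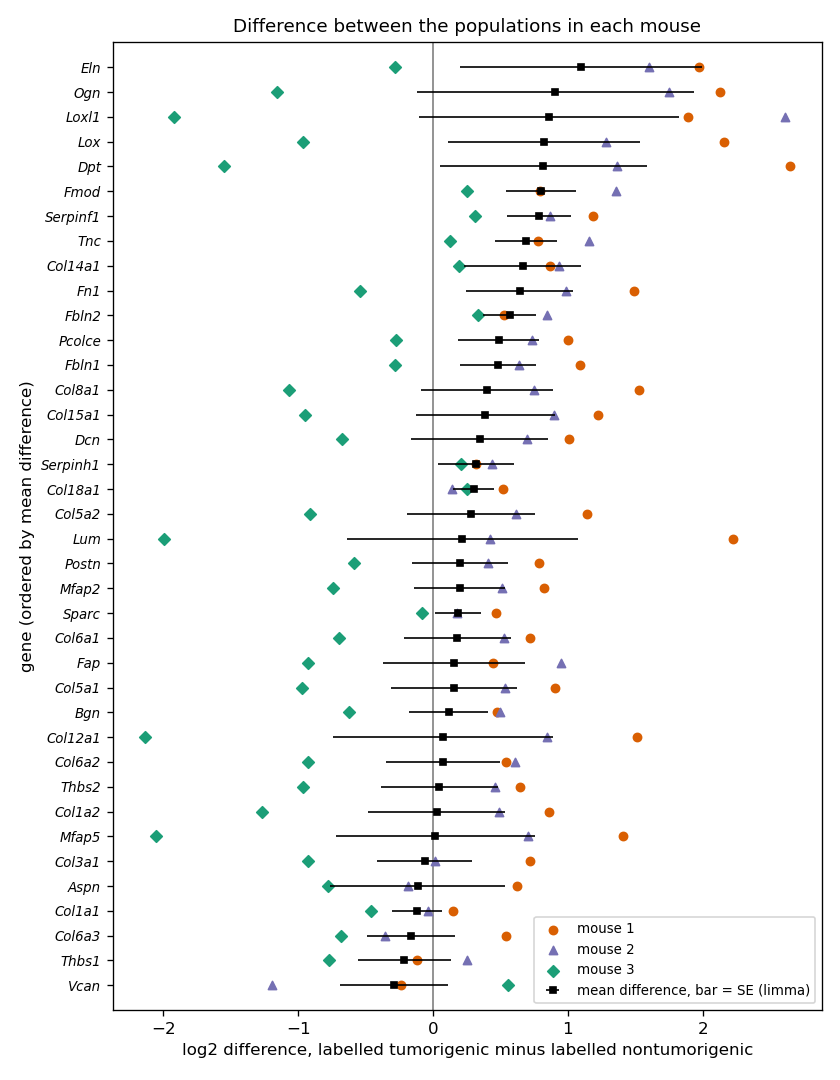
Log2 difference of each matrix gene (labelled tumorigenic minus labelled nontumorigenic) in mice 1, 2 and 3 (coloured symbols) with the mean and its SE from limma (black), ordered by the mean. Mouse 3 lies right of 0 for 8 of 38 genes, and 7 genes have all 3 symbols right of 0.

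Probe sets of a gene did not always share a sign. Of the 38 genes, 31 had more than 1 probe set past the dim limit, and in 19 of these all probe sets had 1 sign while in 12 they had both. Fmod, Serpinf1 and Col18a1 had probe sets of 1 sign, and Fbln2 and Tnc had both. Over all 85 probe sets of the 38 genes, 0 had a limma adjusted p below 0.05 in the fit on probe sets.

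Upstream sequence is shown for 4 genes, chosen after their values were seen, that stand for the patterns above: Fmod and Serpinf1, whose groups did not overlap, Col1a2, which divided by mouse, and Vcan, which ran against it. Each run holds the 250 bases before the RefSeq gene start (GRCm38.p6), 5′ to 3′ on the gene's strand, with capitals for any of 3 motifs on either strand. The motifs are CCAAT, the core bound by the factor NF-Y; the letters TATAAA of a TATA box; and GGGCGG, a core bound by the factor Sp1.
Fmod, chr1:134037004-134037253, plus strand: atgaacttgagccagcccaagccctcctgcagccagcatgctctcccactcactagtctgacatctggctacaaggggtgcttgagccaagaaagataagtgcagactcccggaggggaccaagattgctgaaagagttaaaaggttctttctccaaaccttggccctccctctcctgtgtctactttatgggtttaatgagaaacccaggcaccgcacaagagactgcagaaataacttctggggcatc
Serpinf1, chr11:75422624-75422873, minus strand: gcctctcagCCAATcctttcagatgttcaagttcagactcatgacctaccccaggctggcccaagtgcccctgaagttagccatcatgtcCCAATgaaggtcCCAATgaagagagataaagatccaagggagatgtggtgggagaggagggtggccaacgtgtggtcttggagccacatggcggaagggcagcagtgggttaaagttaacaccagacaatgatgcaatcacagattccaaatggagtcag
Col1a2, chr6:4505368-4505617, plus strand: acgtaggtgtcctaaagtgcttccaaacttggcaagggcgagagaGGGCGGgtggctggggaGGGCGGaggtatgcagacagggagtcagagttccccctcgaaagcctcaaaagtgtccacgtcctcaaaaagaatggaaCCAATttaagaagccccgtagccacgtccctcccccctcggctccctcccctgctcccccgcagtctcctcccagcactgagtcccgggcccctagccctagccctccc
Vcan, chr13:89742513-89742762, minus strand: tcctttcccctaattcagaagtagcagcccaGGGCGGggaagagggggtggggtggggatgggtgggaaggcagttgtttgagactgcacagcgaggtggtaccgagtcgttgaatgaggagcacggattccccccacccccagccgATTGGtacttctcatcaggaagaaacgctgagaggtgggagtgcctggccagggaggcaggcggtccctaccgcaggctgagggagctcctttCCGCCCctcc
Serpinf1 held 3 matches of CCAAT, Col1a2 held 1 of CCAAT and 2 of GGGCGG, and Vcan held 1 of CCAAT and 2 of GGGCGG. The Fmod run held none of the 3 motifs. Of the 38 genes, 25 had an entry in the RefSeq promoter table, and CCAAT was found in 7 of them, TATAAA in 6 and GGGCGG in 13. Over all 32851 promoters of that length the shares were 33.9% for CCAAT, 12.4% for TATAAA and 32.7% for GGGCGG. A match is a description of the letters and not a binding site.

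Enzymes and chaperones that fold, modify, trim and cross-link collagen, inside or outside the cell, had a median near 0 in mouse 3, where the matrix genes had a negative one; this contrast was not tested. Of 23 listed, 20 were measured, 18 had a positive difference, beside 50.7% of all genes, and 0 passed the adjusted threshold. Their median differences were 0.66, 0.53 and 0.076 in mice 1 to 3, and 8 of 20 had a positive difference in all 3 mice, beside 15.9% of all genes. The lysyl hydroxylase Plod1 read 8.97, 9.24 and 8.67 in the arrays labelled tumorigenic and 7.54, 8.56 and 7.72 in those labelled nontumorigenic, without overlap. Plod3, of the same enzyme family, differed by 0.71 and the procollagen C-proteinase Bmp1 by 0.96, and Loxl4, a lysyl oxidase, by 0.92. For these 4 genes limma gave adjusted p values of 0.443 to 0.503. At an unadjusted limma p below 0.05 these 4 were the only higher ones of the 20, beside 5.23% of all genes, with 0 lower beside 3.27%.

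Fibroblast identity genes followed the matrix genes. Their median differences were 1.01, 0.58 and -0.60 in mice 1 to 3. For 10 of 15 the labelled tumorigenic array of mouse 3 held the lowest value, beside 12.9% of all genes. By the smallest p, Cthrc1, a secreted protein of activated fibroblasts, differed by 0.98, the repressor Twist1 by 0.24, Cygb by 0.59 and Pi16 by 1.10, and 0 of 15 had an unadjusted limma p below 0.05. Pericyte markers had median differences of 0.40, -0.14 and -0.19, and 0 of 9 had such a p. The labelled tumorigenic array of mouse 3 held the lowest value for 55.6% of them, beside 52.6% of the matrix genes. Its median gap to the mean of those of mice 1 and 2 was -1.24, beside -1.21 for the matrix genes.

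Matrix-degrading enzymes and their inhibitors had 9 of 10 positive differences, beside 50.7% of all genes, with a median of 0.77, and 0 passed the adjusted threshold. The collagenase Mmp13, counted among the 9, read 6.12, 6.33 and 5.15 in the arrays labelled tumorigenic and 2.18, 3.38 and 2.70 in those labelled nontumorigenic. Its labelled nontumorigenic mean of 2.75 was below the dim limit, so the size of the difference is rough. Mmp13 was thus tested only through the arrays where it is high and counts as no support for the list. Mmp11 differed by 1.34 and the inhibitor Timp2 by 0.82, both without overlap, and Mmp14, a membrane-bound collagenase, by 0.67. The limma adjusted p of Mmp11 was 0.494 and that of Timp2 0.463.

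TGF-beta ligands, which induce collagen genes in fibroblasts, differed in sign. Tgfb1 read 6.52, 6.04 and 5.55 in the arrays labelled tumorigenic and 4.39, 4.92 and 4.96 in those labelled nontumorigenic (limma adjusted p = 0.412). Tgfb2 read 9.49, 9.66 and 9.58 against 10.14, 9.90 and 10.36 under the nontumorigenic label (limma adjusted p = 0.521). Of 8 measured ligands and latent binding proteins, 1 was higher (Tgfb1) and 2 were lower (Tgfb2 and Ltbp1) at an unadjusted limma p below 0.05. The shares of all genes were 5.23% higher and 3.27% lower, and 0 of the 8 passed after adjustment.

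Among collagens outside the 38, 9 of 15 had a positive difference, beside 50.7% of all genes, with a median of 0.024. Col9a1, a chain of a cartilage-type collagen, read 5.39, 6.46 and 7.88 in the arrays labelled tumorigenic and 8.59, 7.98 and 8.75 in those labelled nontumorigenic, and was the only one with an unadjusted limma p below 0.05. The other named ones were Col7a1, of anchoring fibrils, at 0.61, Col11a1, a minor fibrillar collagen, at 0.79, and Col16a1, a fibril-associated collagen, at 0.47. Of 8 collagen receptors measured, only the leukocyte receptor Lair1 had such a p, at 9.01, 7.85 and 4.47 under the tumorigenic label and 3.26, 2.76 and 2.75 under the nontumorigenic label, and under the tumorigenic label the order of the mice was that of Ptprc. The labelled nontumorigenic mean of Lair1, 2.92, was below the dim limit, so it was tested only through the arrays where it is high and counts as no support for the list. Ddr2, a collagen receptor kinase of fibroblasts, differed by 0.42 and its epithelial relative Ddr1 by -0.42. The integrin chain Itga2 differed by -0.20, but it read only 3.17 to 3.69 over the 6 arrays, close to the dim limit.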

How the data were processed

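Expression was measured on 6 Affymetrix arrays of sorted mouse mammary tumour cells. The deposited values are log2 levels per probe set, made by the authors with RMA per the submitters' processing notes. The RMA version is not given in the sources used here, and the log2 scale was read from the values (highest 13.87). RMA sets arrays to 1 distribution, so a shift shared by most transcripts is removed. The table held 45101 probe sets, 64 of them controls that entered no test. By the platform annotation 34945 had 1 gene symbol, 932 several and 9160 none. Symbols were matched by Entrez identifier to RefSeq (34741 matched, 0 changed). The dimmest 25% of probe sets were left out, and the brightest remaining probe set stood for a gene. In 3 matrix genes 2 arrays shared exactly the same value.

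limma 3.58.1 (lmFit, eBayes; R 4.3.3) compared the labels over 15027 genes and 33778 probe sets with no covariate, two-sided, with Benjamini-Hochberg adjustment at 0.05. It was tested on simulated data. Each p given is from limma, since an exact permutation test of 3 against 3 arrays cannot go below 0.1. The titles name 1 mouse for both labels, so the mouse numbers pair the arrays. Deviations of same-mouse arrays from their group means correlated at 0.079, 0.136 and 0.086, and those of different mice at -0.083 to -0.010. The mouse as a block was 1 of 18 alternatives. Genes given with all array values had the 6 smallest p in a direction, the 4 highest means, the 4 largest differences or the 2 smallest p of a role. Dcn, Lum and other matrix genes are given by differences. From other lists, the sort markers and up to 4 genes with the smallest p are named. The genes, lists and tests were chosen with earlier results of these data known.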

Additional observations from a re-analysis of the deposited data

How the results depend on the processing

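A total of 18 alternatives were run, and 0 matrix genes passed the adjusted threshold under any of them (smallest limma adjusted p 0.134). Leaving out single arrays or mice moved the median of the 38 genes between -0.076 and 0.79, the count of higher genes at an unadjusted p below 0.05 between 0 and 19, that of lower ones between 0 and 1, and that of all genes past adjustment between 0 and 18. With the labelled tumorigenic arrays of mice 1 and 2 left out, the median was -0.56, with 0 higher and 12 lower genes. All genes past adjustment numbered 1 with no dim filter and 1 with probe sets averaged per gene. Higher matrix genes numbered 1 with that average and 2 with the probe set of largest variance. The mouse as a block, that is the pairing, gave the median 0.25, 4 higher and 0 lower genes, and changed no call.

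Signs held under all alternatives for 7 genes: Col14a1, Col18a1, Fbln2, Fmod, Fn1, Serpinf1 and Serpinh1. Of these, Fn1 and Fbln2 each had a second probe set with a negative difference, at -0.34 and -0.04. Without single arrays or mice, 23 changed sign, with these ranges of the log2 difference: Aspn -0.63 to 0.56, Bgn -0.076 to 0.49, Col12a1 -0.65 to 1.18, Col15a1 -0.093 to 1.06, Col1a1 -0.25 to 0.055, Col1a2 -0.39 to 0.67, Col3a1 -0.46 to 0.37, Col5a1 -0.25 to 0.72, Col5a2 -0.15 to 0.88, Col6a1 -0.087 to 0.64, Col6a2 -0.20 to 0.57, Col6a3 -0.53 to 0.094, Col8a1 -0.16 to 1.14, Dpt -0.094 to 2.004, Fap -0.24 to 0.71, Loxl1 -0.015 to 2.25, Lum -0.78 to 1.32, Mfap2 -0.11 to 0.67, Mfap5 -0.68 to 1.05, Postn -0.11 to 0.60, Thbs1 -0.55 to 0.11, Thbs2 -0.25 to 0.55, Vcan -0.72 to 0.16. With the labelled tumorigenic arrays of mice 1 and 2 left out, the sign changed to Bgn -0.49, Col12a1 -1.79, Col15a1 -0.48, Col1a2 -1.17, Col5a1 -0.89, Col5a2 -0.79, Col6a1 -0.73, Col6a2 -0.92, Col8a1 -0.57, Dcn -0.81, Dpt -0.43, Eln -0.52, Fap -0.96, Fbln1 -0.020, Lox -0.59, Loxl1 -1.37, Lum -1.66, Mfap2 -0.39, Mfap5 -1.67, Ogn -1.31, Pcolce -0.039, Postn -0.55, Sparc -0.026, Thbs2 -0.94 and Vcan 0.55. The mean of probe sets gave Col1a1 0.086, Col1a2 -0.10 and Col5a1 -0.057, and the probe set of largest variance gave Col1a1 0.29, Col5a1 -0.44 and Tnc -0.31. These last changes follow from probe sets of both signs, and fewer arrays from the construction of the alternatives; further causes were not tested.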
